A study of Laccaria bicolor with 4 samples.

Results

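Close divergent gene pairs of the basidiomycete *Laccaria bicolor* are adjacent genes that are read away from each other across a short gap. Genes were sorted along each scaffold of the V2 genome. A pair was taken where the left gene lay on the minus strand, the right gene lay on the plus strand, the gene models did not overlap and at most 500 bp separated them. The rule used positions and strands only. It gave 2513 pairs with 5026 of the 23125 annotated genes, which were 44.1% of the 5704 divergent pairs of adjacent non-overlapping genes. No gene belonged to more than 1 of these pairs. At the same distance there were 4401 tandem pairs, with both genes on 1 strand, and 2382 convergent pairs, with the genes read toward each other. The 3 orientations together made 9296 close pairs of the 21309 adjacent non-overlapping pairs.

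RNA was sequenced from mycelium of the wild-type strain S238N-H82, grown for 8 weeks in liquid medium. There were 2 libraries of mycelium that had been kept for 2 days in medium with 5 mM vitamin C and 2 libraries of untreated mycelium. The purpose of the study was to relate oxidized forms of 5-methylcytosine to gene expression, and vitamin C was given to raise the activity of the TET enzymes that make them. Stranded libraries were prepared from RNA above 200 nt after removal of ribosomal RNA, and no age, other genotype or further treatment separates the groups. The labels call the libraries of a condition biological replicates. They do not say whether replicates came from separate cultures, and the p-values measure the spread between these libraries only.

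A divergent pair shares 1 intergenic region, so that the promoters of both genes lie side by side or overlap. Such bidirectional promoters are common in compact genomes such as those of fungi, where a nucleosome-depleted region is often flanked by start sites on both strands. *Laccaria bicolor* forms ectomycorrhiza on tree roots, and its genome is rich in transposable elements and lineage-specific multigene families. Vitamin C is a cofactor of TET-type dioxygenases, where it returns the bound iron to its reduced state. The gene identifiers matched no entry of the gene table used here, so genes are given by identifier and position and not by product.

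Levels are given as TPM, the length-scaled share of a gene among the transcripts of a library, so that levels of different genes can be compared. The libraries rested on 4.27 to 5.65 Gb of aligned bases with vitamin C and on 4.20 to 4.40 Gb in untreated mycelium. The median read coverage of genes above 0.05 TPM was 39.1 to 57.5 with vitamin C and 40.5 to 47.5 in untreated mycelium. Replicates of a condition differed in depth most with vitamin C, where replicate 1 held 5.65 Gb and replicate 2 held 4.27 Gb.

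The gap of the close divergent pairs had a median of 218 bp, with an interquartile range of 119 to 347 bp. Close tandem pairs had a median gap of 209 bp and close convergent pairs of 218 bp. The distance limit did not fall at a break in the distribution, with 170 divergent pairs in the last 50 bp inside it and 162 in the first 50 bp outside it. The largest gap inside the limit was 500 bp and the smallest outside was 502 bp. In 68 pairs another gene model overlapped at least part of the gap between the genes. In 712 divergent pairs (28.3%) at least 1 gene overlapped a further gene model, against 17.2% of tandem pairs and 10.5% of convergent pairs. Their genes had a median length of 1312 bp, against 1187 bp in tandem and 1337 bp in convergent pairs.

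In most close divergent pairs both genes were in the same state, expressed or silent. A gene was called expressed in a condition where the mean TPM of its libraries was above 0.05. With vitamin C both genes were expressed in 1883 pairs, 1 gene in 199 pairs and neither gene in 431 pairs. In untreated mycelium these counts were 1906, 182 and 425. The genes of a pair were thus in the same state in 92.1% of pairs with vitamin C and in 92.8% in untreated mycelium. If the same numbers of expressed genes were placed without regard to pairs, 66.7% of pairs with vitamin C and 67.4% in untreated mycelium would match. The correlation of the states within pairs (phi, which takes the share of expressed genes into account) was 0.762 with vitamin C and 0.778 in untreated mycelium. Of the expressed genes, 95.0% had an expressed partner with vitamin C and 95.4% in untreated mycelium. Of the silent genes, 81.2% had a silent partner with vitamin C and 82.4% in untreated mycelium.

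Single libraries gave slightly lower values than the condition means. The same state was found in 91.5% and 90.6% of pairs in the vitamin C libraries and in 91.8% and 92.2% in the untreated libraries. The vitamin C libraries averaged 91.0% ± 0.62 and the untreated libraries 92.0% ± 0.34 (SD, n = 2 each). Both vitamin C libraries were below both untreated libraries, with a mean difference of -0.955 percentage points (two-sided exact permutation p = 0.333, the smallest that 2 against 2 libraries allow). The library with the lowest share, vitamin C replicate 2, also had the lowest median coverage of expressed genes (39.1). Vitamin C replicate 1 had the highest coverage (57.5) but a lower share than untreated replicate 1 (40.5). The part of coverage in the difference between conditions was not tested.

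Shared states were less frequent at larger gaps. Among divergent pairs with a gap of 101 to 200 bp, 94.7% shared a state with vitamin C and 95.0% in untreated mycelium. At 401 to 500 bp these shares were 89.2% and 91.2%, and at 501 to 1000 bp they were 87.1% and 88.0%. Over all divergent pairs with more than 500 bp between the genes, 82.5% shared a state with vitamin C and 82.8% in untreated mycelium. Fewer of the genes themselves were expressed at larger gaps, with 84.4% of genes expressed at 101 to 200 bp and 66.8% at 501 to 1000 bp with vitamin C, against 84.8% and 67.7% in untreated mycelium. Phi, which allows for this, was 0.800 at 101 to 200 bp and 0.709 at 501 to 1000 bp with vitamin C, against 0.806 and 0.726 in untreated mycelium. Within the 500 bp limit phi had no steady order in untreated mycelium. It was 0.758 at 201 to 300 bp, 0.780 at 301 to 400 bp and 0.770 at 401 to 500 bp. With vitamin C these values were 0.757, 0.751 and 0.721. Pairs with a gap of 100 bp or less did not continue the order of the shares, with 93.2% in the same state with vitamin C and 93.0% in untreated mycelium. Their phi was 0.755 with vitamin C and 0.749 in untreated mycelium.

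**Figure D1:**
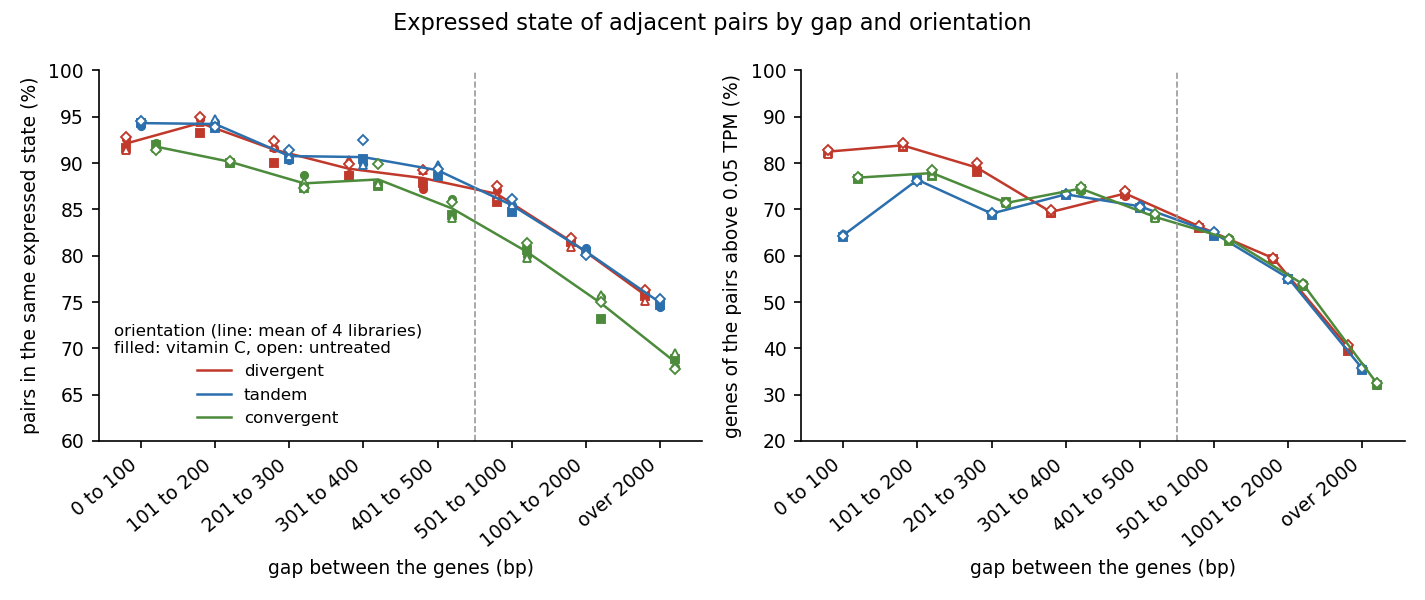
Share of pairs in the same expressed state (left) and share of their genes above 0.05 TPM (right), in percent, by gap class in bp and orientation. Points are the 4 libraries (filled for vitamin C, open for untreated), lines their means, and the dashed line marks the 500 bp limit: convergent pairs lie lowest at 101 to 300 bp and beyond 400 bp in all 4 libraries, and genes of divergent pairs are the most often expressed at 0 to 300 bp and the least often at 301 to 400 bp.

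The high share was not a property of divergent pairs alone. Within each library the divergent share was set against the share in close tandem and in close convergent pairs, and the 4 differences were tested by an exact two-sided sign-flip permutation test, whose smallest p with 4 libraries is 0.125. Divergent pairs shared a state in 91.5% and tandem pairs in 92.2% (mean of 4 libraries), a difference of -0.70 percentage points ± 0.43 (SD, n = 4), below tandem in all 4 libraries (exact permutation p = 0.125). Without pairs of which a gene overlaps a further model the difference from tandem pairs was -1.83 points, and with a gap limit of 1000 bp it was -0.0297 points. Convergent pairs shared a state in 88.9%, and divergent pairs were higher by 2.59 percentage points ± 0.56 (SD, n = 4) in all 4 libraries (exact permutation p = 0.125). Without overlapping models that difference was 0.671 points. The libraries measured the same pairs, so the 4 values are not independent sets of genes.

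Over all close pairs, genes of divergent pairs were expressed more often than those of the other orientations. The share of expressed genes averaged 78.4% in divergent pairs, 70.7% in tandem pairs and 74.2% in convergent pairs. The divergent share was higher than the tandem share by 7.73 percentage points ± 0.41 and higher than the convergent share by 4.15 points ± 0.24 (SD, n = 4 libraries, exact permutation p = 0.125 each). The order was the other way at a gap of 301 to 400 bp, where 69.2% to 69.8% of genes of divergent pairs were expressed in the 4 libraries, against 73.2% to 73.3% in tandem pairs and 74.0% to 74.9% in convergent pairs. More divergent pairs (28.3%) than tandem (17.2%) or convergent pairs (10.5%) held a gene that overlaps a further model. Among divergent pairs, such overlaps were more frequent with both genes expressed than with neither. The share of expressed genes without overlapping models was not computed, and the part of overlap in these differences was not tested. An expressed gene had an expressed partner about equally often in divergent pairs (94.6%) and tandem pairs (94.5%), a difference of 0.0906 points ± 0.27 (SD, n = 4, exact permutation p = 0.625), and less often in convergent pairs (92.5%, 2.04 points ± 0.37 below divergent pairs, exact permutation p = 0.125). A silent gene had a silent partner in 80.4% of cases in divergent pairs, against 86.8% in tandem pairs and 78.5% in convergent pairs. The difference of divergent pairs was -6.35 points ± 0.90 from tandem pairs and 1.88 points ± 1.09 from convergent pairs (SD, n = 4, exact permutation p = 0.125 each). Phi differed in the same sense, by -0.063 ± 0.012 from tandem pairs and by 0.039 ± 0.015 from convergent pairs (SD, n = 4). At 0 to 100 bp phi was 0.710 to 0.747 in divergent pairs and 0.759 to 0.778 in convergent pairs, so that in this class divergent pairs were below convergent pairs in all 4 libraries.

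The kinds of pair also differed in structure. With vitamin C the genes of pairs with both genes expressed had a median length of 1433 bp, and those of pairs with neither expressed 929 bp, against 1423 bp and 946.5 bp in untreated mycelium. Where only 1 gene was expressed, the silent gene was the shorter model, with a median of 673 bp against 1167 bp for its expressed partner with vitamin C and 605.5 bp against 1122.5 bp in untreated mycelium. The median gap was 200 bp with both genes expressed, 277 bp with 1 and 277 bp with neither with vitamin C, and 202.5, 247.5 and 286 bp in untreated mycelium. A gene overlapped a further model in 34.8% of pairs with both expressed but in 3.94% of pairs with neither expressed with vitamin C, against 34.6% and 4.00% in untreated mycelium. Overlapping models can share reads, and the part of this in the expressed state was not tested.

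A pair with 1 expressed gene usually held a weak one. In these pairs the expressed gene had a median of 3.86 TPM (interquartile range 0.665 to 16.3) with vitamin C and 2.65 TPM (0.469 to 12.1) in untreated mycelium. Genes of pairs with both expressed had a median of 24.1 TPM with vitamin C and 24.8 TPM in untreated mycelium. The silent partner was listed at exactly 0 in 183 of 199 pairs with vitamin C and in 168 of 182 in untreated mycelium. A value of 0 in such tables can be a failed estimate as well as an absent transcript, and these cannot be told apart. Still, 144 pairs held 1 gene listed at 0 in all 4 libraries beside a gene above 0.05 TPM, and in 40 of them the other gene reached 10 TPM or more, in 5 of them 100 TPM or more.

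The most uneven pairs lay on linkage group 7. The right gene of the first, gene_16937 (745056 to 745682), had 2989 and 4582 TPM with vitamin C and 5923 and 4624 TPM in untreated mycelium. Its left neighbour gene_16936 (744816 to 745036), 19 bp away and listed at 221 bp in length, was at 0 in all 4 libraries. The second uneven pair had the same build, with gene_16947 (777468 to 778094) at 1232 and 2332 TPM with vitamin C and 2617 and 2033 TPM in untreated mycelium. Its left neighbour gene_16946 (776765 to 777448) was again 19 bp away and at 0 throughout. Both expressed genes are listed at 627 bp, lie on the same linkage group and stand beside an unused model at an equal gap. Near-identical copies could divide their reads between them, so that the levels of gene_16937 and gene_16947 are uncertain one by one. In gene_16937 both vitamin C libraries were below both untreated libraries, and in gene_16947 the conditions overlapped. Neither difference passed the test over all genes (limma, Benjamini-Hochberg adjusted p = 0.428 and 0.541). A further gene model overlaps gene_16946.

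The other uneven pairs held weaker genes. On linkage group 9, gene_19356 (1504827 to 1505838) had 116 and 114 TPM with vitamin C and 137 and 169 TPM in untreated mycelium, beside gene_19355 at 0 over a gap of 69 bp. Both vitamin C libraries were below both untreated libraries in gene_19356, a difference that did not pass the test over all genes (limma, Benjamini-Hochberg adjusted p = 0.370). On linkage group 2, gene_7773 (4620815 to 4621573) had 101 and 173 TPM with vitamin C and 168 and 53.9 TPM in untreated mycelium, beside gene_7774 at 0 over 244 bp. The replicates of gene_7773 spanned more than the conditions did. On linkage group 4, gene_12222 had 138 and 108 TPM with vitamin C and 103 and 112 TPM in untreated mycelium, with gene_12224 at 0 over 237 bp. The last of the 6 had a gap of 476 bp on linkage group 10, where gene_21084 had 104 and 82.8 TPM with vitamin C and 68.6 and 89.7 TPM in untreated mycelium beside gene_21080 at 0. Both gene_12222 and gene_21084 overlap a further gene model.

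Vitamin C moved few pairs from one kind to another, and replicates differed as much. By condition means, 83 of 2513 pairs (3.30%) were of another kind with vitamin C than in untreated mycelium, and 81 of them passed between a shared and an unshared state. The share of another kind was 3.48% among close tandem pairs and 4.20% among close convergent pairs. In divergent pairs the vitamin C replicates differed from each other in 87 pairs, the untreated replicates in 103, and libraries of different conditions in 94 to 105 pairs. Both genes were expressed in both conditions in 1865 pairs, neither in 415, and 1 gene in 150. The changing gene had a median of 0.149 TPM in the condition where it was expressed, close above the limit, and reached 1 TPM in 13 of the 81 pairs.

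The strongest of these changes came mostly from single libraries. On linkage group 2, gene_7226 (3424423 to 3424685) was at 0 in both vitamin C libraries and at 0 and 82.8 TPM in the untreated libraries, beside gene_7227 at 486 and 376 TPM with vitamin C and 318 and 491 TPM in untreated mycelium. The gap of this pair was 20 bp. Next came gene_7592, with 9.54 and 0 TPM with vitamin C and 0 in both untreated libraries, and gene_21647, with 5.70 and 0 TPM with vitamin C and 0 in both untreated libraries. In the same way gene_8363 was at 0 in both vitamin C libraries and at 0 and 4.66 TPM in the untreated libraries. In each of these 4 genes 1 library carried the whole value.

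A pair of others changed in every library of a condition. On linkage group 3, gene_10001 (4607497 to 4608073) was at 0 in both vitamin C libraries and at 2.78 and 1.09 TPM in the untreated libraries, 172 bp from gene_10002, which had 16.5 and 18.4 TPM with vitamin C and 19.0 and 18.5 TPM in untreated mycelium. The change of gene_10001 did not pass the test over all genes (limma, Benjamini-Hochberg adjusted p = 0.230). On scaffold 23, gene_26806 (26652 to 27330) had 8.25 and 10.7 TPM with vitamin C and was listed at 0 in both untreated libraries. Its left neighbour gene_26805 (23474 to 26371), 280 bp away, was at 0 in all 4. The conditions did not overlap in gene_26806, and it was the single gene of a close divergent pair that passed the test over all genes.

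That test was limma on log2(TPM + 1) with Benjamini-Hochberg adjustment over the 15107 genes with a mean above 0.05 TPM, a scale on which differences of weakly expressed genes come out smaller. Of the 5026 genes of close divergent pairs 3996 passed this filter on low values, and 966 of the other 1030 were at 0 in all libraries. Vitamin C raised 1 gene at adjusted p under 0.05 and lowered 0, where 0.0463% of all genes tested were higher and 0.0463% lower. At unadjusted p under 0.05, limma found 400 genes of divergent pairs lower (10.0%), against 8.13% of all genes tested, and 176 higher (4.40%), against 4.98%. Both counts moved when 1 library was left out. The count of higher genes fell each time. The count of lower genes rose without untreated replicate 1 and fell without any other library. The median change was -0.05 in genes of divergent pairs and -0.02 in all genes tested, both on the log2(TPM + 1) scale. For gene_26806 the difference was 3.38 ± 0.23 (SE) on that scale (limma, adjusted p = 0.00402), a value that depends on the pseudocount because untreated mycelium was at 0. Leaving out 1 library at a time gave gene_26806 adjusted p-values of 0.0504 to 0.186 in limma, and without the filter on low values it was 0.220, so that the call was lost.

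Levels within pairs were related, but loosely. Over the 1865 pairs with both genes expressed in both conditions, the correlation of log2(TPM + 1) between left and right gene was 0.206 and 0.205 in the vitamin C libraries and 0.205 and 0.229 in the untreated libraries (Pearson), and 0.206, 0.201, 0.198 and 0.223 by rank (Spearman). The points of a library share its depth, and pairs are not replicates. In tandem pairs the Pearson correlation was 0.271 and 0.258 with vitamin C and 0.259 and 0.283 in untreated mycelium over 2943 pairs. In convergent pairs it was 0.103 and 0.0839 with vitamin C and 0.0994 and 0.136 in untreated mycelium over 1627 pairs. In every library the divergent value stood between the other orientations. Divergent pairs farther apart than 500 bp had 0.113 and 0.116 with vitamin C and 0.117 and 0.142 in untreated mycelium over 1513 pairs.

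**Figure D2:**
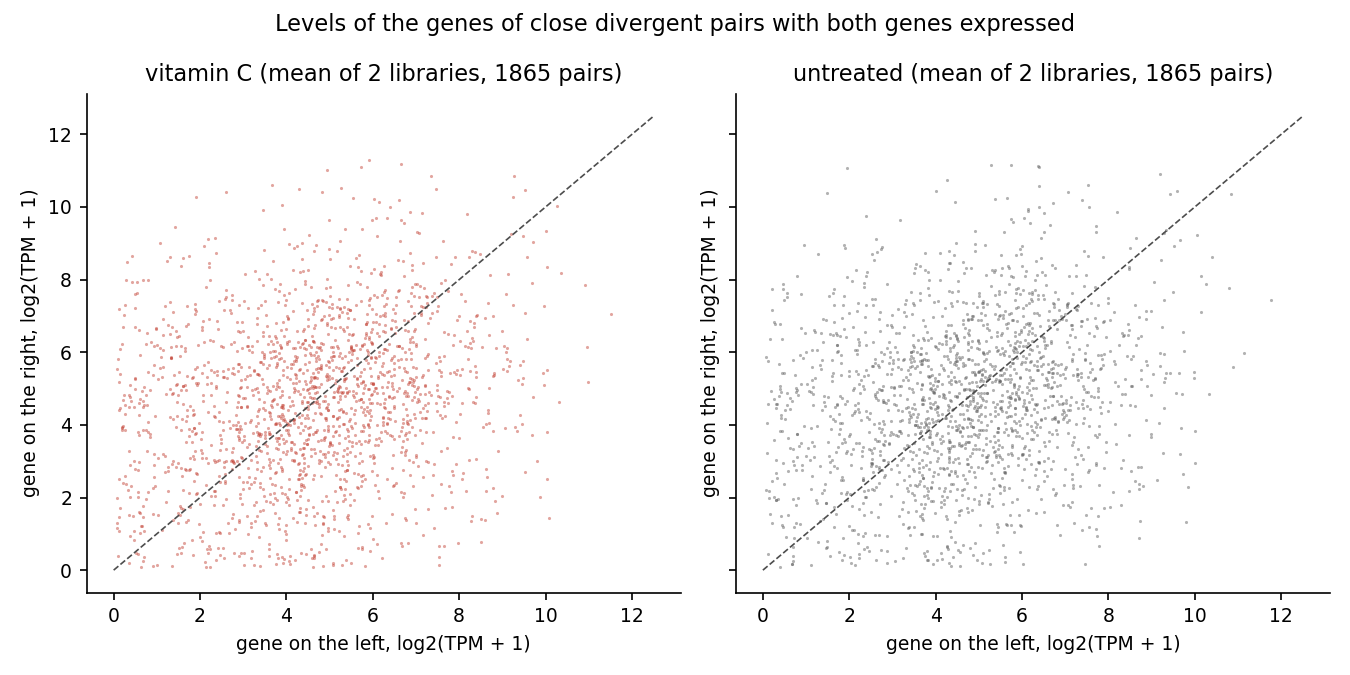
Level of the right gene against the level of the left gene, in log2(TPM + 1), for the 1865 close divergent pairs with both genes expressed in both conditions, with vitamin C (left) and in untreated mycelium (right). Each point is a pair (mean of 2 libraries) and the dashed line marks equal levels: points scatter widely on both sides of it, and the correlation in single libraries was 0.205 to 0.229.

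The genes of a divergent pair were rarely at one level. Their levels differed by a median of 1.92 and 2.01 on the log2 scale in the vitamin C libraries and 2.00 and 1.86 in the untreated libraries. A ratio within 2-fold was found in 28.5% and 26.9% of pairs with vitamin C and in 26.7% and 28.0% in untreated mycelium. A ratio over 8-fold was found in 30.2% and 32.6% of pairs with vitamin C and in 31.9% and 29.0% in untreated mycelium. Unequal levels were not particular to divergent pairs. Over the 4 libraries, 28.5% to 31.6% of close tandem and 35.0% to 39.2% of close convergent pairs had a ratio over 8-fold. A ratio within 2-fold was found in 30.5% to 33.1% of tandem and 23.3% to 25.0% of convergent pairs. In divergent pairs the lower gene had a median of 11.2 TPM and the higher gene of 50.3 TPM with vitamin C, against 11.6 and 51.9 TPM in untreated mycelium.

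Both genes reached 100 TPM in 86 pairs with vitamin C and in 87 pairs in untreated mycelium. The pair with the highest lower gene lay on linkage group 6 with a gap of 195 bp. Its left gene, gene_15687 (1756859 to 1757650), had 1513 and 945 TPM with vitamin C and 1278 and 2386 TPM in untreated mycelium. Its right gene, gene_15688 (1757846 to 1758606), had 1074 and 994 TPM with vitamin C and 1162 and 1464 TPM in untreated mycelium. Both genes were highest in untreated replicate 2 and lowest in vitamin C replicate 2, while vitamin C replicate 1 and untreated replicate 1 had opposite orders in them. The conditions overlapped in gene_15687 and did not in gene_15688, whose difference did not pass the test over all genes (limma, Benjamini-Hochberg adjusted p = 0.438).

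Other strong pairs were steadier. On linkage group 1, gene_139 (354105 to 354893) had 683 and 782 TPM with vitamin C and 801 and 746 TPM in untreated mycelium. Its partner gene_140, 456 bp away, had 1386 and 1441 TPM with vitamin C and 1681 and 1122 TPM in untreated mycelium. On the same linkage group, gene_2110 had 548 and 622 TPM with vitamin C and 669.6 and 580.0 TPM in untreated mycelium. Its partner gene_2111 stood at nearly the same level, with 602 and 629 TPM with vitamin C and 605 and 635 TPM in untreated mycelium, over a gap of 208 bp. On linkage group 10, gene_20622 had 733 and 688 TPM with vitamin C and 664 and 615 TPM in untreated mycelium. Its partner gene_20623, over a gap of 213 bp, had 611 and 573 TPM with vitamin C and 629 and 691 TPM in untreated mycelium. In gene_20622 both vitamin C libraries were above both untreated libraries and in gene_20623 both were below, and neither difference passed the test (limma, Benjamini-Hochberg adjusted p = 0.670 and 0.668).

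The list of strong pairs closes with a pair on linkage group 1 and a pair on linkage group 7. In the first, gene_1352 had 597 and 618 TPM with vitamin C and 680.3 and 688 TPM in untreated mycelium, and gene_1353, 132 bp away, had 1152 and 1309 TPM with vitamin C and 1416 and 1199 TPM in untreated mycelium. In the second, gene_17350 had 998 and 1064 TPM with vitamin C and 1121 and 1013 TPM in untreated mycelium, and gene_17351, 258 bp away, had 679 and 604 TPM with vitamin C and 638 and 549 TPM in untreated mycelium. The adjusted p-values of these 4 genes ran from 0.617 to 0.914 in limma.

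Among close pairs the relation of levels was closest at gaps of 200 bp or less. Averaged over the 4 libraries, the Pearson correlation was 0.240 at 0 to 100 bp (394 pairs), 0.277 at 101 to 200 bp (538 pairs), 0.188 at 201 to 300 bp (389 pairs), 0.0893 at 301 to 400 bp (304 pairs) and 0.136 at 401 to 500 bp (240 pairs). At 501 to 1000 bp it was 0.122 (743 pairs) and at 1001 to 2000 bp 0.0756 (527 pairs), but beyond 2000 bp it was 0.212 (243 pairs, 0.177 to 0.253 over the libraries), as high as over all close pairs. The 4 libraries ranged from 0.228 to 0.265 in the shortest class and from 0.0835 to 0.102 at 301 to 400 bp. Tandem pairs had 0.376 at 0 to 100 bp and 0.202 at 301 to 400 bp, and convergent pairs 0.121 and 0.162. At 101 to 200 bp tandem pairs had 0.267, near the 0.277 of divergent pairs, and convergent pairs had 0.105.

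The pairs with the shortest gaps among those with both genes expressed in all 4 libraries did not stand at equal levels. On linkage group 10 a single base separated gene_20611 (2184935 to 2185556) from gene_20612 (2185558 to 2186788). The left gene had 33.9 and 46.3 TPM with vitamin C and 93.5 and 70.1 TPM in untreated mycelium, and the right gene 2.96 and 4.42 TPM with vitamin C and 6.89 and 6.96 TPM in untreated mycelium. On linkage group 7, also with a gap of 1 bp, gene_16810 had 23.4 and 23.9 TPM with vitamin C and 22.7 and 23.8 TPM in untreated mycelium, and gene_16811 had 5.37 and 4.10 TPM with vitamin C and 3.75 and 3.42 TPM in untreated mycelium. The left gene was the higher one in all 4 libraries in both pairs.

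The next pairs of that list stood at more similar levels. With a gap of 4 bp on linkage group 10, gene_20459 had 10.5 and 7.30 TPM with vitamin C and 6.94 and 9.52 TPM in untreated mycelium, and gene_20460 had 13.9 and 12.0 TPM with vitamin C and 12.2 and 13.0 TPM in untreated mycelium. With a gap of 4 bp on linkage group 9, gene_19076 had 7.40 and 5.59 TPM with vitamin C and 6.90 and 9.92 TPM in untreated mycelium, and gene_19077 had 8.50 and 4.58 TPM with vitamin C and 6.09 and 9.01 TPM in untreated mycelium. The conditions overlapped in all 4 of these genes.

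A gene of a divergent pair has a further neighbour on its outer side, and 2255 such genes had a non-overlapping outer neighbour within the same distance. They shared a state with the divergent partner in 93.0% and 92.2% of cases with vitamin C and in 93.3% and 93.3% in untreated mycelium. With the outer neighbour they shared it in 92.7% and 92.3% with vitamin C and in 92.5% and 93.1% in untreated mycelium. Where the outer neighbour was tandem (1059 genes), the partner was matched less often than that neighbour in all 4 libraries, with 92.1% to 93.3% against 93.3% to 94.6%. Where it was convergent (1196 genes), the partner was matched more often in all 4 libraries, with 92.3% to 93.6% against 91.1% to 92.2%. For the 1740 genes with partner and outer neighbour expressed, levels correlated with the partner at 0.179 to 0.196 and with the outer neighbour at 0.154 to 0.179 over the 4 libraries. With a tandem outer neighbour (828 genes) these ranges were 0.208 to 0.217 and 0.200 to 0.229. There the outer neighbour was the closer one in vitamin C replicate 1 and untreated replicate 2. With a convergent outer neighbour (912 genes) the ranges were 0.146 to 0.173 and 0.103 to 0.139. These values are descriptions over genes that share libraries and, in part, neighbours.

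Vitamin C did not change the ratio within any divergent pair at adjusted p under 0.05. The log2(TPM + 1) difference between right and left gene was fitted with limma over all 12017 adjacent pairs with both genes tested, of which 1908 were close divergent pairs. The count of 0 divergent pairs stands against 0.0666% of all pairs, and the smallest adjusted p of a divergent pair was 0.145 (limma, Benjamini-Hochberg). At unadjusted p under 0.05, 320 divergent pairs had a changed ratio (16.8%), against 16.2% of all adjacent pairs. Without vitamin C replicate 1 that count was 117. The mean level of the pair, fitted in the same way, was higher in 0 and lower in 0 divergent pairs at adjusted p under 0.05, against 0.025% and 0.025% of all pairs, with a smallest adjusted p of 0.155. At unadjusted p under 0.05 limma gave 157 pairs a lower mean (8.23%), against 6.9% of all pairs, and 58 pairs a higher mean (3.04%), against 3.69%. Lower means were 304 without untreated replicate 1, 76 without untreated replicate 2 and 79 without vitamin C replicate 2, and higher means were 15 without vitamin C replicate 1. Leaving out 1 library gave 6 to 71 divergent pairs with a lower mean, 2 to 11 with a higher mean and 1 to 5 with a changed ratio at adjusted p under 0.05, with 71 lower means and 5 ratios without untreated replicate 1 and 1 ratio without untreated replicate 2.

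Joint changes were few. Of the 1908 pairs with both genes tested, limma at unadjusted p under 0.05 found both genes higher in 4 pairs, both lower in 25 and opposite changes in 8. In 152 pairs 1 gene was higher, in 332 pairs 1 gene was lower, and in 1387 pairs neither gene passed. The partner of a lower gene was lower in 12.8% of cases, where 10.2% of genes of these pairs were lower. The partner of a higher gene was higher in 4.76%, where 4.40% were higher. In tandem pairs the partner of a lower gene was lower in 16.3% (7.71% of genes lower) and the partner of a higher gene higher in 12.1% (5.72% higher). In convergent pairs these shares were 5.18% (9.20% lower) and 2.86% (4.17% higher). None of the genes in the jointly changed pairs described next passed the adjusted threshold without a replicate block or a crossed pairing. With the replicate block gene_15670 (adjusted p = 0.00561) and gene_24417 (adjusted p = 0.0406) passed it in limma, although the replicate numbers pair nothing in the labels. A crossed pairing of the replicates was added after seeing the data. With it, genes that passed in limma included gene_24417 (adjusted p = 0.0252) and gene_15670 (adjusted p = 0.0304). Further ones included gene_22740 (adjusted p = 0.0406) and gene_23811 (adjusted p = 0.0494). A call was also gained in 1 setting, the replicate block or the crossed pairing, by gene_20611 of the jointly lower pairs. The same held for gene_19456, gene_19457 and gene_6407 of the opposite pairs.

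**Figure D3:**
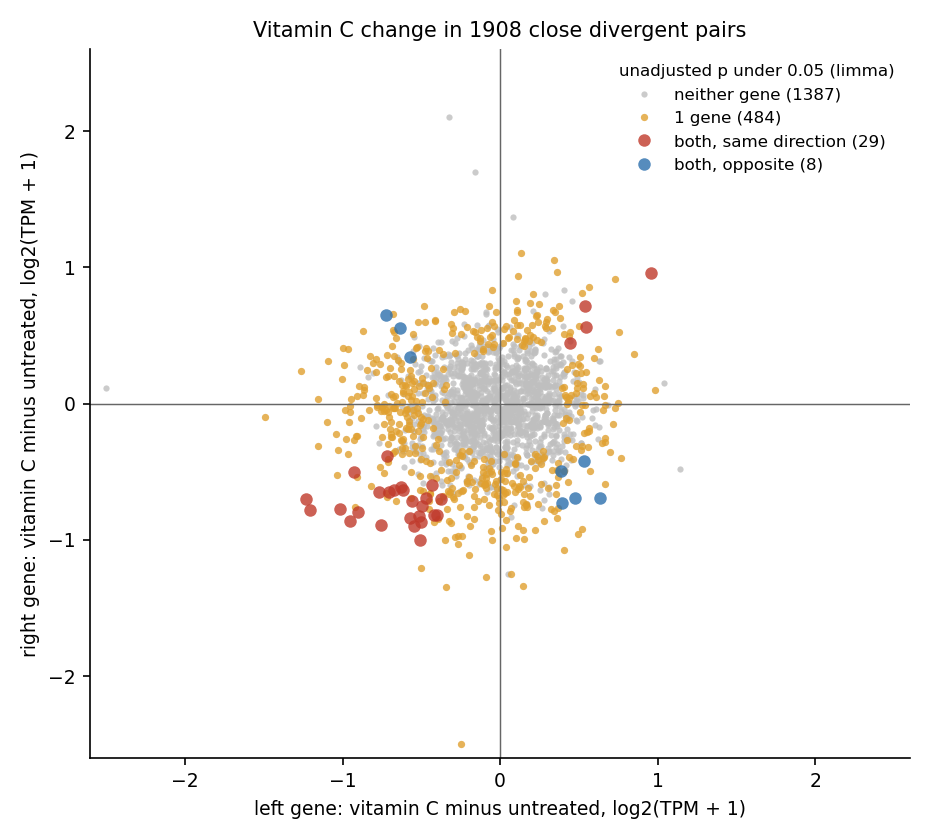
Vitamin C minus untreated difference of the right gene against that of the left gene, in log2(TPM + 1), for 1908 close divergent pairs with both genes tested. Colours mark how many genes had an unadjusted p under 0.05 in limma, and 2 pairs beyond the axis limit of 2.5 are drawn at it: the cloud is nearly round, with 29 pairs changed in the same direction and 8 in opposite directions.

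All 4 pairs with both genes higher are given here, and they were picked by these differences, so that their values are descriptions. On scaffold 11, gene_21604 (57936 to 59728) had 58.6 and 53.3 TPM with vitamin C and 36.4 and 21.9 TPM in untreated mycelium. Its partner gene_21603 (55465 to 57865), 70 bp away, was low, with 1.69 and 1.36 TPM with vitamin C and 0 and 0.683 TPM in untreated mycelium. Both differences were 0.96 on the log2(TPM + 1) scale, with an SE of 0.27 for gene_21603 and 0.25 for gene_21604. They depended on single libraries, with 0.58 for gene_21603 and 1.31 for gene_21604 without untreated replicate 1, and 1.33 and 0.61 without untreated replicate 2. The conditions did not overlap in either gene, and the adjusted p-values were 0.295 and 0.279 (limma, Benjamini-Hochberg).

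On scaffold 13 the pair gene_23810 (843061 to 844328) and gene_23811 (844372 to 847345) was read from a gap of 43 bp. The left gene had 119.9 and 116 TPM with vitamin C and 86.7 and 74.6 TPM in untreated mycelium, and the right gene had 194 and 202 TPM with vitamin C and 139 and 129 TPM in untreated mycelium. Replicates lay close together in both genes. The differences were 0.55 ± 0.16 and 0.56 ± 0.14 (SE) on the log2(TPM + 1) scale, so that the ratio within the pair moved by 0.01 on that scale. The adjusted p-values were 0.296 and 0.268 (limma, Benjamini-Hochberg).

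The other jointly higher pairs lay on linkage groups 6 and 1. In the first, with a gap of 326 bp, gene_16172 had 63.4 and 47.4 TPM with vitamin C and 37.9 and 37.1 TPM in untreated mycelium. Its partner gene_16173 had 95.5 and 72.0 TPM with vitamin C and 51.1 and 49.0 TPM in untreated mycelium. Both genes were higher in vitamin C replicate 1 than in replicate 2, and the difference of gene_16172, 0.54 on the log2(TPM + 1) scale, was 0.33 without replicate 1. In the second, with a gap of 210 bp, gene_2876 had 149 and 139 TPM with vitamin C and 113 and 99.0 TPM in untreated mycelium, and gene_2877 had 206 and 229 TPM with vitamin C and 177 and 142 TPM in untreated mycelium. The difference of gene_2877 was 0.45 on that scale and 0.29 without untreated replicate 2. A further gene model overlaps gene_2876.

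**Figure D4:**
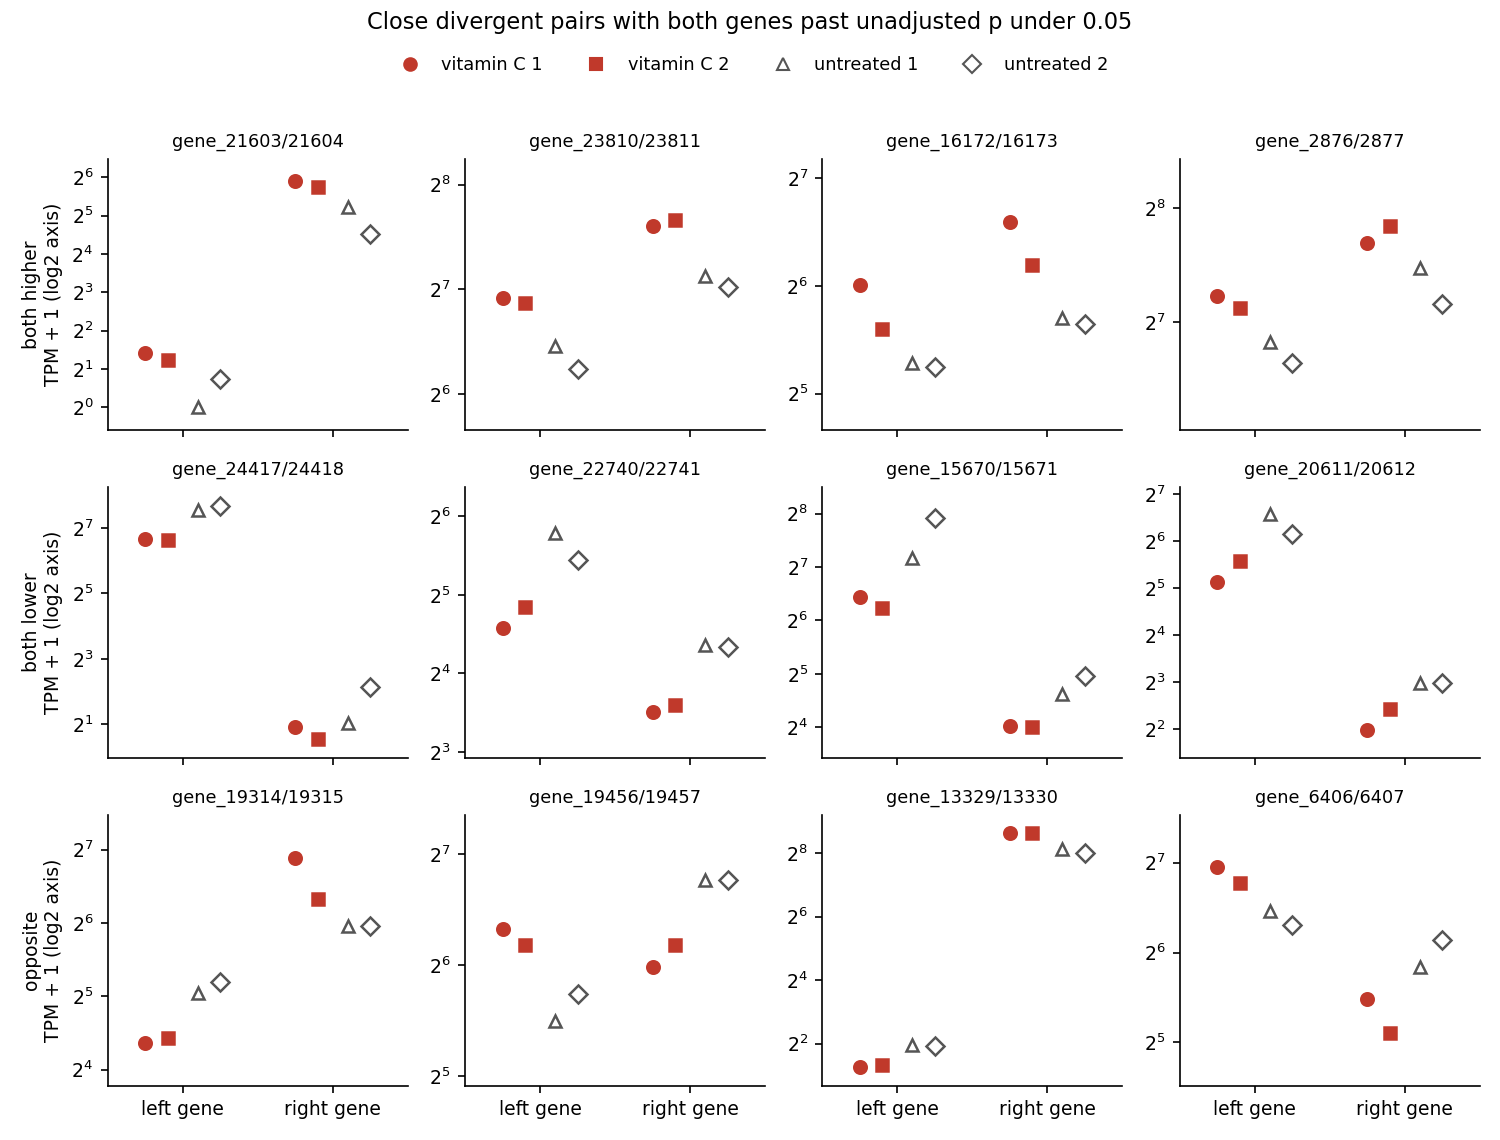
TPM + 1 on a log2 axis in each library for the left and the right gene of the 12 close divergent pairs chosen for the largest joint differences at unadjusted p under 0.05 (4 both higher, 4 both lower, 4 opposite with vitamin C). Filled symbols are the vitamin C libraries and open symbols the untreated libraries: they do not overlap in any of the 24 genes, which the choice of the pairs favours.

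The 25 pairs with both genes lower were ranked by the smaller of the differences in a pair, and the pair on scaffold 14 came first. There gene_24417 (760232 to 762394) had 101 and 97.4 TPM with vitamin C and 184 and 203 TPM in untreated mycelium. Its partner gene_24418, 256 bp away, had 0.869 and 0.477 TPM with vitamin C and 1.05 and 3.45 TPM in untreated mycelium. The differences were -0.96 ± 0.15 and -0.86 ± 0.36 (SE) on the log2(TPM + 1) scale, with adjusted p-values of 0.142 and 0.378 (limma, Benjamini-Hochberg). The levels of the genes differ by more than their changes do, since gene_24418 stood near 1 TPM. Its difference was -0.30 without untreated replicate 2 and -1.42 without untreated replicate 1.

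On scaffold 12, gene_22740 had 22.9 and 27.8 TPM with vitamin C and 54.4 and 42.4 TPM in untreated mycelium. Its partner gene_22741, 207 bp away, had 10.4 and 11.2 TPM with vitamin C and 19.6 and 19.3 TPM in untreated mycelium. On linkage group 6, gene_15670 (1727079 to 1728005) had 85.4 and 74.5 TPM with vitamin C and 142 and 241 TPM in untreated mycelium, a difference of -1.20 ± 0.25 (SE) on the log2(TPM + 1) scale (limma, Benjamini-Hochberg adjusted p = 0.252). Its partner gene_15671, 111 bp away, had 15.2 and 15.1 TPM with vitamin C and 23.8 and 30.04 TPM in untreated mycelium. Both genes of the pair on linkage group 6 were highest in untreated replicate 2. The last pair was gene_20611 and gene_20612, given above for its gap of 1 bp, with differences of -1.01 ± 0.22 and -0.77 ± 0.27 (SE) on the log2(TPM + 1) scale. At least 1 gene overlaps a further gene model in the pairs on scaffold 12 and linkage groups 6 and 10.

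Opposite changes from 1 gap were seen as well. On linkage group 9, gene_19456 (1694580 to 1696642) had 79.2 and 71.6 TPM with vitamin C and 44.2 and 52.5 TPM in untreated mycelium. Its partner gene_19457 (1696834 to 1697690), 191 bp away, had 62.0 and 71.3 TPM with vitamin C and 108 and 108 TPM in untreated mycelium. The higher gene of the pair was thus the left one with vitamin C, except for near equality in replicate 2, and the right one in both untreated libraries. The ratio of right to left gene differed by -1.32 ± 0.25 (SE) on the log2(TPM + 1) scale, with an adjusted p of 0.162 (limma, Benjamini-Hochberg).

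Also on linkage group 9, gene_19314 had 19.6 and 20.5 TPM with vitamin C and 32.1 and 35.5 TPM in untreated mycelium. Across 138 bp its partner gene_19315 had 118 and 78.9 TPM with vitamin C and 61.3 and 60.9 TPM in untreated mycelium, a difference of 0.65 on the log2(TPM + 1) scale that was 0.36 without vitamin C replicate 1. On linkage group 4 a weak and a strong gene parted, with gene_13329 at 1.40 and 1.53 TPM with vitamin C and 2.87 and 2.79 TPM in untreated mycelium. Its partner gene_13330, 175 bp away, had 394 and 394 TPM with vitamin C and 278 and 258 TPM in untreated mycelium. On linkage group 2, gene_6406 had 122 and 108 TPM with vitamin C and 87.0 and 78.3 TPM in untreated mycelium. Its partner gene_6407, 190 bp away, had 43.7 and 33.4 TPM with vitamin C and 56.2 and 69.3 TPM in untreated mycelium. The ratios of these 3 pairs had adjusted p-values of 0.163, 0.173 and 0.173 (limma, Benjamini-Hochberg).

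Over all pairs the changes of the partners were only weakly related. In the 1865 divergent pairs with both genes expressed, the vitamin C difference of the left gene correlated with that of the right gene at 0.082 (Pearson) and 0.073 (Spearman), and 53.0% of pairs changed in the same direction. The Pearson correlation was 0.148 in tandem pairs and -0.018 in convergent pairs. Differences between replicates of a condition, which hold no treatment, correlated within divergent pairs at 0.108 for vitamin C replicate 2 minus 1 and at 0.164 for untreated replicate 2 minus 1. In these the partners moved in the same direction in 61.7% and 61.3% of pairs. Similar shares were found in tandem pairs (63.2% and 61.9%, with correlations of 0.114 and 0.161). Convergent pairs had 59.3% and 58.4%, with correlations of only 0.074 and 0.066. In divergent pairs the correlation of vitamin C differences from condition means was below both replicate values, but means and single libraries are unlike measures. Between single libraries, vitamin C minus untreated gave 0.057 to 0.170, and only replicate 2 of both conditions gave more than the untreated replicates. The correlation from condition means was 0.045 without untreated replicate 2, 0.128 without untreated replicate 1, 0.126 without vitamin C replicate 1 and 0.073 without vitamin C replicate 2.

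The partners' differences share the libraries they were computed from. When the left gene's difference was taken from 1 library of each condition and the right gene's from the other library of each, so that no library was shared, the correlation in divergent pairs averaged 0.013 over the 4 possible choices, with a range of -0.024 to 0.068. With 1 library of each condition used for both genes, it was 0.057 to 0.170. In tandem pairs the correlation without a shared library averaged 0.047 and in convergent pairs -0.034. Depth and library preparation are shared by the partners in a library, and their part in the correlation cannot be told apart from biological differences between the replicates.

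**Figure D5:**
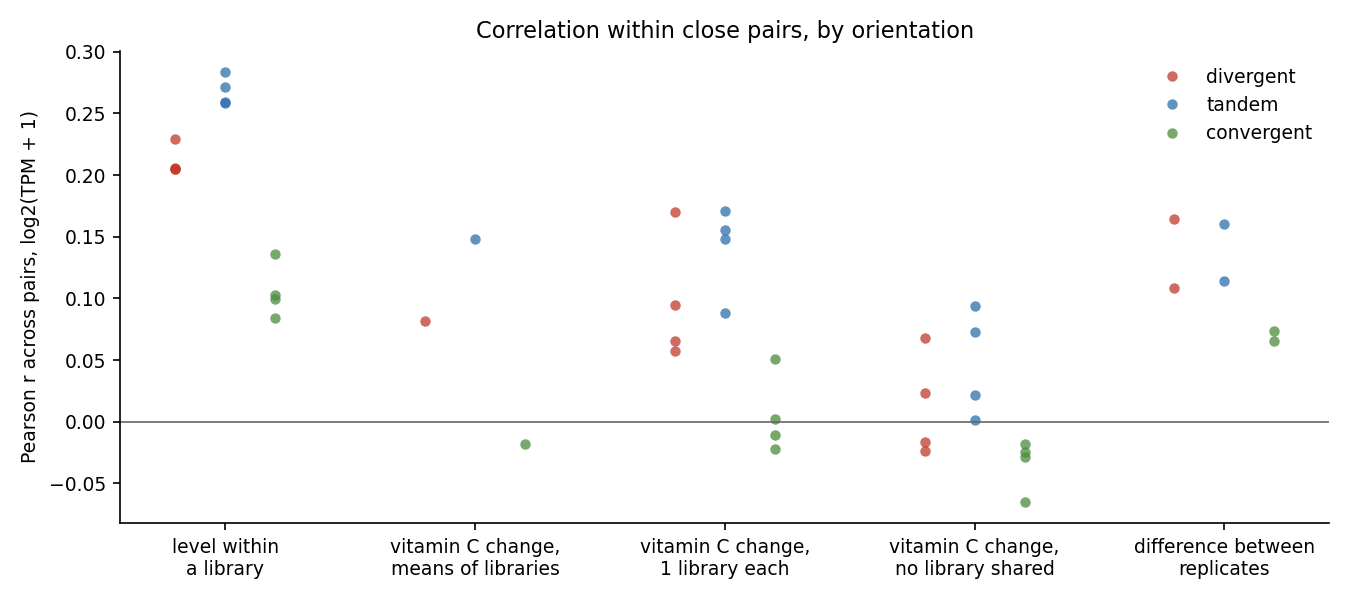
Pearson correlation between the genes of close pairs, on log2(TPM + 1), for divergent, tandem and convergent pairs: levels within each of 4 libraries, vitamin C minus untreated differences from condition means, from 1 library of each condition, or with no library shared by the genes, and differences between replicates. Divergent pairs lie at 0.205 to 0.229 for levels, at 0.082 for vitamin C differences and at -0.024 to 0.068 where no library was shared.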

How the data were processed

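Values of 4 *L. bicolor* libraries were used, with condition and replicate from the labels. The authors' pipeline was FastQC for read quality, BBDuk for trimming, hisat2 for mapping to the V2 genome, samtools markdup (version 1.12) for duplicates and StringTie (version 2.0.3) for quantification of the annotation. FastQC, HISAT2 and SAMtools also stand in the submitters' processing notes. The strand setting of StringTie was not given in the sources used here. TPM values deposited by the authors sum to 1000000 in each library. The FPKM values deposited take gene length and aligned bases into account and served as an alternative. The coverage the authors deposited is mean read depth over exons, and its ratio to FPKM gave the aligned bases. The values are not counts, so the count test named by the authors, DESeq2, was not run and no counting interval is given.

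Differences were fitted with limma (version 3.58.1, R 4.3.3) and a variance trend on log2(TPM + 1), over genes with a mean above 0.05 TPM, or over adjacent non-overlapping pairs with both genes above it, with Benjamini-Hochberg adjustment over all of them. The fit was tested on simulated data. Shares and correlations were computed with numpy 2.4.6, scipy 1.17.1 and pandas 2.3.3 under Python 3.11.15, and figures with matplotlib 3.10.9. The distance rule, tests and lists were chosen with earlier results of these data known. Pairs were named by rule: the 6 with the highest lower gene, the 6 with 1 gene at 0 and the highest partner, those past adjusted p 0.05, the 4 with the largest joint rise, joint fall and opposite change at unadjusted p under 0.05, the 4 with the shortest gap among those expressed in all libraries, and 6 that changed between a shared and an unshared state. Alternatives covered the pseudocount, filters, scaling, variance trend, replicate block, thresholds, distance limit, overlapping or short models, linkage groups and each library left out. Replicate numbers pair nothing in the labels, and only 2 numbers are shared. Modification maps and transposable element positions were not used here.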

Additional observations from a re-analysis of the deposited data

How the results depend on the processing

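The share of divergent pairs in the same state, 92.1% with vitamin C and 92.8% in untreated mycelium, was 88.6% and 89.4% with TPM above 0.5, 86.2% and 87.3% with TPM above 1, 90.1% and 91.2% when both libraries had to pass, 93.7% and 93.6% with a gap of 250 bp or less, 90.4% and 91.2% with 1000 bp or less, 91.1% and 91.8% without overlapping models, and 93.3% and 93.9% with both models longer than 300 bp. Leaving out 1 library gave 90.6% to 91.5% with vitamin C and 91.8% to 92.2% in untreated mycelium. The difference from tandem pairs, -0.70 points, was -1.16 with TPM above 1, -0.0297 with 1000 bp or less, -1.83 without overlapping models and -0.099 with models longer than 300 bp, and -0.80 to -0.49 without single libraries. The difference from convergent pairs, 2.59 points, was 3.93 with TPM above 0.5, 4.92 with TPM above 1, 3.56 with 1000 bp or less and 0.671 without overlapping models, and 2.42 to 2.79 without single libraries. No alternative turned either direction, but within single gap classes both directions varied between libraries. The correlation of levels, on average 0.211, was 0.168 with both genes at 1 TPM or more, 0.250 with 250 bp or less, 0.197 with 1000 bp or less and 0.196 to 0.210 without single libraries. The correlation of vitamin C differences was 0.045 to 0.128 without single libraries. The cause of these shifts was not tested.

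Of the limma counts at adjusted p under 0.05, the gene count (1 higher, 0 lower) became 0 higher with a gap of 250 bp or less, which leaves out gene_26806, and without the filter on low values, and 1 lower over genes averaging 1 TPM or more. The last setting also gave 1 pair with a lower mean. Leaving out single libraries gave 0 genes higher and 0 lower each time, 1 to 5 changed ratios, 2 to 11 higher means and 6 to 71 lower means. The 71 came without untreated replicate 1. Such a fit leaves 1 library in a condition, assumed to vary like the other. With the replicate block there were 5 genes higher and 18 lower, 2 changed ratios, 2 higher means and 6 lower means. The replicate numbers are only shared names. The differences between replicates of the conditions correlated at -0.256 across genes, so a crossed pairing was added after seeing the data, with 21 genes higher and 79 lower, 0 changed ratios, 7 higher means and 45 lower means. The 25 genes whose settings were run, gene_26806 and the 24 genes of the joint and opposite pairs, kept their direction in all 299 settings, and 15 settings gave another call. For gene_26806 these were the loss without each library and without the filter, and for the rest calls gained with the replicate block or the crossed pairing. At unadjusted p under 0.05, counts ranged from 28 to 418 genes higher and from 141 to 749 lower.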

Other observations

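Close divergent pairs were spread unevenly over the scaffolds. On the 10 linkage groups, which held 1961 of the 2513 pairs, their genes made up 13.0% of the genes of linkage group 5 (80 pairs) and 25.9% of those of linkage group 9 (113 pairs). Among the 16 scaffolds with at least 20 such pairs, scaffolds 12 and 19 had the densest supply, with 33.8% (112 pairs) and 35.4% (40 pairs) of their genes in such pairs. Pairs with neither gene expressed made up 42.5% of the pairs of linkage group 5 with vitamin C and 41.3% in untreated mycelium. On linkage group 2 that share was 12.0% in both conditions (217 pairs), and on scaffold 19 it was 2.5% in both. The same state was found in 82.5% of pairs of linkage group 5 in both conditions and in 96.2% of pairs of linkage group 6 in both (131 pairs). These are values per scaffold without a test.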
